A study of Mus musculus with 12 samples.

Results

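Axon guidance molecules were compared between 3 mouse cell lines, as the genes whose mouse symbol begins with Sema3 to Sema7, Plxn, Epha, Ephb, Efna or Efnb with a number, Ntn with a number or Unc5, together with Nrp1, Nrp2, Slit1 to Slit3, Robo1 to Robo4 and Dcc. This rule matched 72 symbols in the RefSeq gene table, of which 66 had probes on the array, among 25128 genes and unnamed targets in all. Efna3, Plxnb2, Plxnb3, Robo3, Sema4c and the antisense transcript Plxna4os1 are not analysed here. The 66 genes were 7 class 3 semaphorins, 12 membrane semaphorins, 9 plexins and neuropilins, 14 Eph receptors, 7 ephrins, 6 Slits and Robos, 9 netrins and netrin receptors, and 2 genes, Unc50 and Unc5cl, that share the Unc5 letters but are not known as netrin receptors. Each gene had 3 probes, except for Sema6d with 12 probes in 4 targets.

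The lines were AtT20, from a mouse pituitary corticotroph tumor, BV2, an immortalized mouse microglial line, and N18, a mouse neuroblastoma line used as a neuron-like cell. All were grown in the same serum-containing medium and received no treatment, so line is the only difference that the labels give. Each line was represented by 4 plates, labelled as biological replicates, with 1 single-color array per plate. Every line is a single immortalized culture, and the spread between its plates is that of one line grown repeatedly. RNA came from whole plates, so fewer cells with a message and less message per cell cannot be told apart.

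Axon guidance molecules tell a growing axon or a migrating cell where to go. Semaphorins act through plexins, with neuropilins as co-receptors for most of the secreted class 3 members. Ephrins are anchored to the cell surface and are bound by Eph receptor tyrosine kinases on neighbouring cells, with a broad division into an A and a B class. Slits are secreted ligands of Robo receptors. Netrins are secreted proteins that attract axons through Dcc and repel them through Unc5 receptors. Many of these genes also work outside the nervous system, in blood vessels and in immune cells.

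Values are given on 2 scales. The intensity of a gene is its log2 signal after quantile normalization of the 12 arrays, and this scale was used for the tests between lines. The level of a gene is its log2 signal without normalization, minus the mean of 10 seminal proteins on the same plate, which the authors took as unexpressed. A gene was called above the threshold in a line when its mean level exceeded 2 SD of the seminal proteins, a threshold of 0.37 ± 0.11 for AtT20, 0.56 ± 0.15 for BV2 and 0.74 ± 0.10 for N18 (SD, n = 4 plates each). Probes bind with different strength, so values of different genes were not compared with each other.

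The plates labelled AtT20 stood apart from the rest. The interquartile range over all probes was 0.38 to 0.78 log2 units there, 1.28 to 1.73 for BV2 and 1.91 to 2.21 for N18, and the median SD of the 66 genes over 4 plates was 0.27, 0.10 and 0.09 in the same order. Of 9 corticotroph genes, 5 were above the threshold in N18, 3 in BV2 and 1 on the plates labelled AtT20, and Pomc, the precursor of adrenocorticotropin, had a level of 0.29 ± 0.26 (SD, n = 4) below it. Tbx19, the corticotroph transcription factor, was also below it with a level of 0.02 ± 0.06. Of 11 microglial genes, 9 were above the threshold in BV2 and 2 in N18, with Aif1 and Cx3cr1 below it in BV2. Of 15 neuroblastoma genes, 13 were above the threshold in N18, 9 on the plates labelled AtT20 and 7 in BV2. Results for AtT20 refer to the plates with that label.

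N18 plates carried message for the widest range of axon guidance genes. Of the 66 genes, 38 were above the threshold in N18 (57.6%), 26 in BV2 (39.4%) and 29 on the plates labelled AtT20 (43.9%). Over all 25128 genes and targets the shares were 55.4% in N18, 53.3% in BV2 and 35.0% in AtT20. The N18 share of the axon guidance genes therefore lay near that of all genes, the BV2 share below it and the AtT20 share above it, as a description with no test. By less than 1 SD of their 4 plates, 4 of the 38 genes passed in N18, 3 of the 26 in BV2 and 13 of the 29 in AtT20. A single probe or none exceeded the threshold for 9, 7 and 12 of them, in the same order.

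Above the threshold in every line were 16 genes (24.2%, against 25.1% of all genes and targets). Among them were the semaphorin co-receptor Nrp1, the plexins Plxna1 and Plxna2, the ephrin receptors Epha2 and Ephb2, the endothelial receptor Robo4, and Slit3. Plxna2 in N18 and Ephb2 in BV2 and N18 had only 1 probe above the threshold. Plxna2 in N18 passed under 2 of 8 alternative settings, and Ephb2 under 4 in BV2 and 3 in N18. In 15 genes (22.7%, against 32.4%) the level was below the threshold everywhere. These included Dcc, the attractive netrin receptor, with a level of -0.41 ± 0.08 (SD, n = 4) in N18, -0.26 ± 0.12 in BV2 and -0.01 ± 0.11 in AtT20. They also included Robo1, a main receptor for Slits on axons, its ligand Slit1, 4 of the 7 class 3 semaphorins (Sema3c, Sema3d, Sema3e and Sema3f) and 5 of the 14 Eph receptors. Only in N18 did 13 genes pass (19.7%, against 7.02% of all genes and targets), and 7 genes, Sema4a, Sema4d, Plxnc1, Plxnd1, Nrp2, Ephb3 and Unc5b passed in BV2 and N18 but not in AtT20 (10.6%, against 21.1%). Passing in 1 line and not in another was not itself tested.

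In AtT20 alone, 10 genes passed (15.2%, against 5.12% of all genes and targets), of which 3 were Eph receptors of the A class. Epha3 had a level of 0.64 ± 0.35 (SD, n = 4) with 2 of its 3 probes above the threshold, while Epha5 at 0.48 ± 0.21 and Epha7 at 0.92 ± 0.60 had 1 such probe each. The threshold was lowest in AtT20, at 0.37 against 0.56 in BV2 and 0.74 in N18. Plxnb1, Robo2 and Efna4 passed in AtT20 alone with mean levels of 0.37, 0.58 and 0.46. Their mean levels in N18 were higher, at 0.73, 0.68 and 0.51. The other genes that passed in AtT20 alone had their highest mean level there. In BV2 alone, 2 genes passed (3.03%, against 4.49%), and both calls depended on few measurements. Sema3a, a secreted repellent of axons, had a level of 0.95 ± 2.09 in BV2 (SD, n = 4), and this came from plate 2, without which it was -0.09. On that plate 1 of its 3 probes had an intensity of 15.72, against 9.41 to 9.60 on the other BV2 plates, while the other probes had 10.14 and 9.99. Sema5a at 0.61 ± 0.21 was above the threshold on 2 of 4 plates and passed no longer without plate 4, with 0.55.

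**Figure D1:**
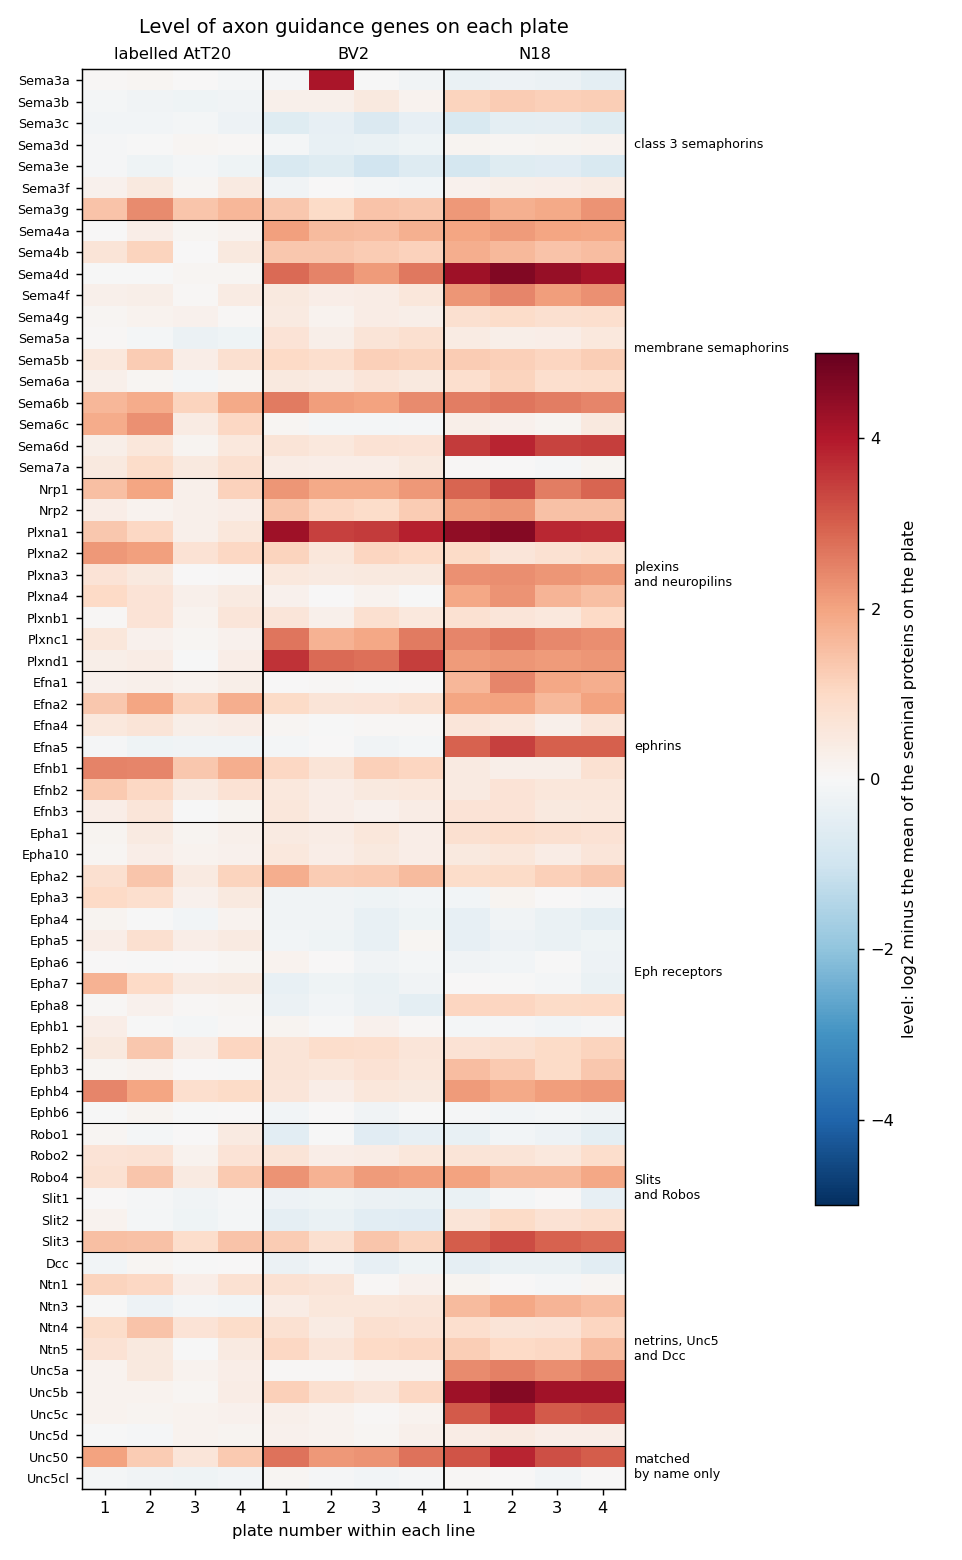
Level of each of the 66 genes (rows, grouped by role) on each of the 12 plates (columns), in log2 units above the mean of the seminal proteins, from blue through white at 0 to red. The N18 columns are among the reddest for Sema4d, Sema6d, Plxna1, Efna5, Unc5b, Unc5c and Unc50, the AtT20 columns are palest in most rows, and Sema3a stands out on BV2 plate 2 alone.

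Between N18 and BV2, the lines whose marker genes followed their labels best, 17 of the 66 genes were higher in N18 (25.8%) and 6 were lower (9.09%), by limma with Benjamini-Hochberg adjustment over all 25128 genes and targets. Over all of these, 19.0% were higher and 21.9% lower. The median difference was 0.03 over the 66 genes and -0.06 over all genes and targets. The 17 higher genes were 10 ligands and 7 receptors. Each of the 17 was also called higher on unnormalized values and on levels against the seminal proteins. Levels are unnormalized values minus a single mean per plate, and both scales moved the median of all genes toward N18. They are therefore no separate checks of these calls. Of the 6 lower genes, Efnb1 and Plxnd1 were called lower on all 3 scales, while Sema7a (-0.39, adjusted p = 0.00749) and Ntn1 (-0.47, adjusted p = 0.00853) were below the threshold in both lines. Relative to the seminal proteins, 28 genes were higher (42.4%, against 38.8% of all genes and targets) and 3 lower (4.55%, against 13.1%). The median of all genes was then 0.18 in place of -0.06. Without normalization the median was 0.15, and 23 genes were higher (34.8%, against 30.7%) and 3 lower (4.55%, against 7.58%). The 8 arrays of the pair alone gave 22 higher and 17 lower, median centring gave 17 lower and a variance weight per line 18 lower. Of all called genes and targets, 46.5% were higher in N18 on the quantile scale, 74.7% against the seminal proteins and 80.2% when unnormalized. Not called were 43 genes, which differed by -0.37 to 0.23 apart from Sema3a at -1.30, whose BV2 mean rests on plate 2.

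**Figure D2:**
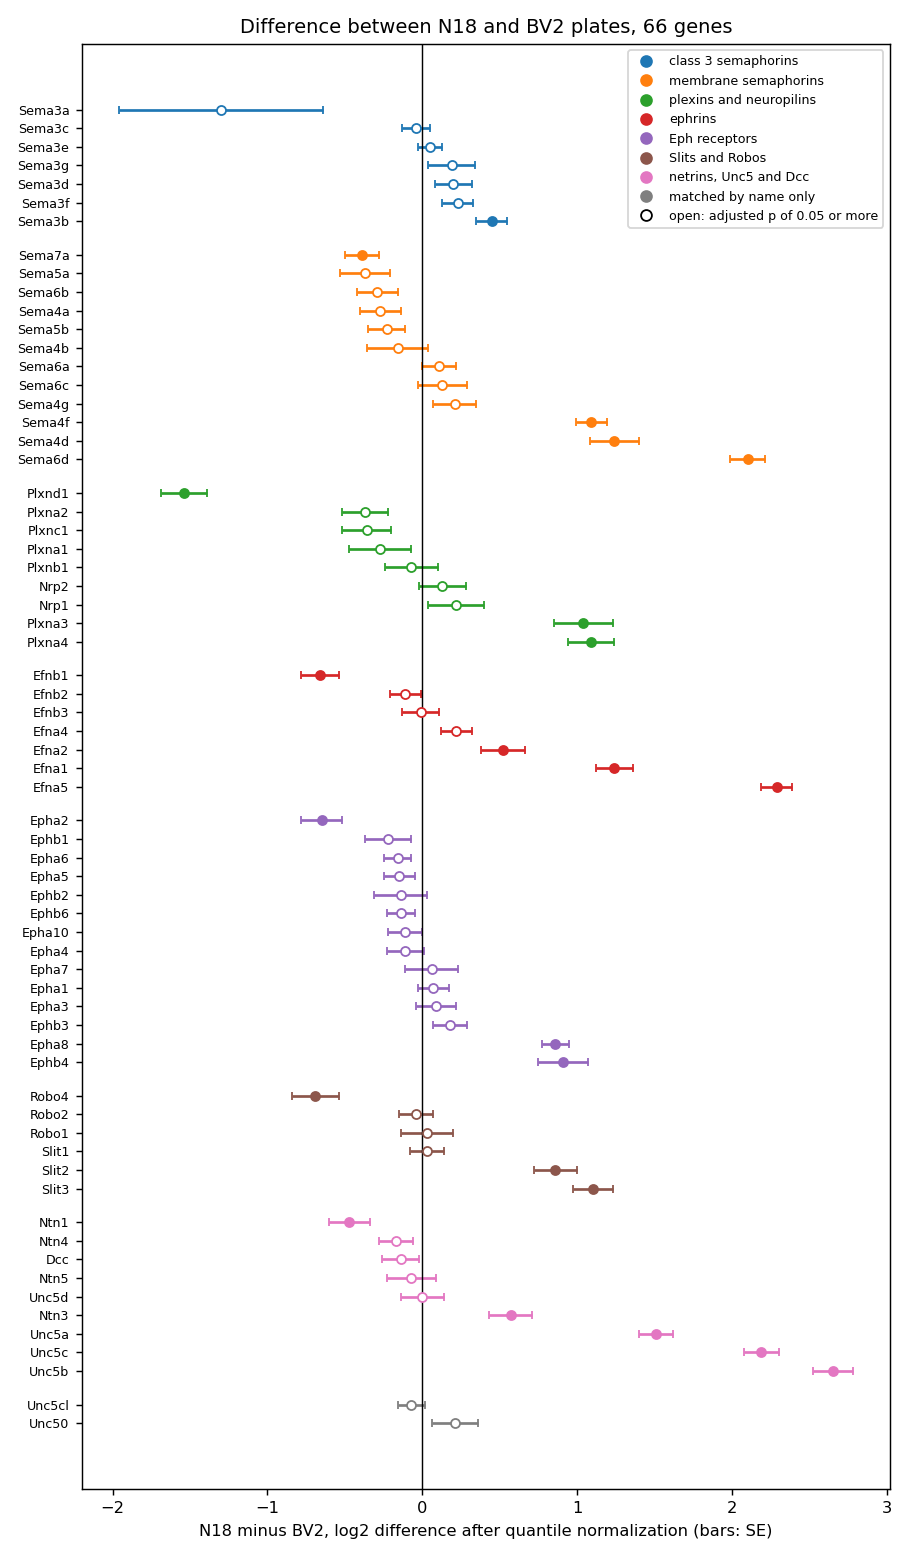
Difference in intensity between N18 and BV2 for each of the 66 genes, in log2 units with the SE from the fit of 12 arrays, grouped and colored by role; filled points passed an adjusted p of 0.05. The largest differences toward N18 were those of Unc5b (2.65), Efna5 (2.29), Unc5c (2.19) and Sema6d (2.10), and the largest called difference toward BV2 was that of Plxnd1 (-1.54).

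Unc5 receptors, which mediate repulsion by netrins, were higher in N18 than in BV2 in 3 of 4 cases. That is 75.0%, against 19.0% of all genes and targets. Unc5b had intensities of 13.45, 13.52, 13.57 and 13.44 in N18 and 10.94, 10.94, 10.62 and 10.88 on the BV2 plates, and was above the threshold in both lines. All N18 plates were above all BV2 plates, by 2.65 ± 0.13 (SE), which is 6.29-fold (adjusted p = 7.85e-11), and its 3 probes gave differences of 2.56 to 2.68. Unc5c had 12.22, 12.57, 12.33 and 12.35 in N18 and 10.18, 10.23, 10.13 and 10.16 in BV2. The groups did not overlap, and the difference was 2.19 ± 0.11 (adjusted p = 1.49e-10). Since Unc5c was below the threshold in BV2, its fold is given as a lower bound from that threshold, the smallest over the 3 scales, and N18 was at least 3.5-fold higher. Unc5a had 11.58, 11.54, 11.67 and 11.78 in N18 and 10.03, 10.11, 10.24 and 10.17 in BV2, also without overlap. N18 was at least 2.1-fold higher, with a difference of 1.51 ± 0.11 (adjusted p = 1.53e-08). The remaining member, Unc5d, was below the threshold in every line, with a difference between N18 and BV2 of 0.00 ± 0.14 (adjusted p = 0.991).

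Of the 4 netrins, Ntn3 was called higher and Ntn1 lower in N18 than in BV2. That is 25.0% each way, against 19.0% and 21.9% of all genes and targets. Ntn3, a netrin known from sensory ganglia, had intensities of 11.00, 11.13, 11.16 and 11.00 in N18 and 10.28, 10.68, 10.55 and 10.50 in BV2. N18 was at least 1.4-fold higher (0.57 ± 0.14, adjusted p = 0.00278), but with the median of its probes in place of their mean the difference was 0.18 (adjusted p = 0.384). Ntn4, a netrin of basement membranes, and Ntn5 were above the threshold in all lines and differed by -0.17 and -0.07 between N18 and BV2, without passing the test. The N18 level of Ntn4 was 0.81 ± 0.19 (SD, n = 4), and without plate 4 it was 0.72, below the threshold. Ntn1, the best known netrin, was above the threshold only on the plates labelled AtT20, with a level of 0.81 ± 0.35 (SD, n = 4) there. Its difference between N18 and BV2 was -0.47 (adjusted p = 0.00853), with both lines below the threshold. Dcc was not detectable in any line at this signal over background.

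Promoter sequences are shown for the Unc5 receptors that were higher in N18 together, and for the ephrin and the plexin with the largest called differences in each direction, so that their start regions can be set side by side. They were chosen after their values were seen. Each window comes from RefSeq, build GRCm38.p6, covers 250 bases before to 50 bases after a start, and is written 5′ to 3′ on the strand of the gene. Capitals mark every match, on either strand, of GGGCGG (the GC box that Sp1 binds) and AGGAAG (a core that ETS factors bind).
Unc5a (chr13:54949161-54949460, plus strand): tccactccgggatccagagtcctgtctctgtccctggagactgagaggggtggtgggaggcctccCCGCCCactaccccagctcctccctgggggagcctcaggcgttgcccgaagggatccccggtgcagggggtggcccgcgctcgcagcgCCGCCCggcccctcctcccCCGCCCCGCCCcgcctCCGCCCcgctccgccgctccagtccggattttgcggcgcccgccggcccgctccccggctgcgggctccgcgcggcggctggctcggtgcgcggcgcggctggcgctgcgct
Unc5b (chr10:60831532-60831831, minus strand): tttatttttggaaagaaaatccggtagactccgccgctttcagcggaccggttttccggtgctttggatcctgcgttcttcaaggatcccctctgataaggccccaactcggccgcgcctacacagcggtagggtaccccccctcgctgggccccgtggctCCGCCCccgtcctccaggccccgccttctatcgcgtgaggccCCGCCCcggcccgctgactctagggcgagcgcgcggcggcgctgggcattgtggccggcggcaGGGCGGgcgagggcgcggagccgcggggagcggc
Unc5c (chr3:141465314-141465613, plus strand): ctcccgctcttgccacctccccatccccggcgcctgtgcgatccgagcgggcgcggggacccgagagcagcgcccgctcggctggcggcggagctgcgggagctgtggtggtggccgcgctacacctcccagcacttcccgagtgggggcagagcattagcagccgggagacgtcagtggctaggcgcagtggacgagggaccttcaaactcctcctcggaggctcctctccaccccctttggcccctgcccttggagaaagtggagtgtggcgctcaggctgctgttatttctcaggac
Efna5 (chr17:62881268-62881567, minus strand): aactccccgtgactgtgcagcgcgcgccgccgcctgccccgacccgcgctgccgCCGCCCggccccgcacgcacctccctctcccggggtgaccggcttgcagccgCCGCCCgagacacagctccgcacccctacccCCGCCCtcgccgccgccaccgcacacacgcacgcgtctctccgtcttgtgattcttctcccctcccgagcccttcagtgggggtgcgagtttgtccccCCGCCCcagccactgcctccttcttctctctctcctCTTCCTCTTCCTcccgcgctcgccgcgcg
Plxnd1 (chr6:115994956-115995255, minus strand): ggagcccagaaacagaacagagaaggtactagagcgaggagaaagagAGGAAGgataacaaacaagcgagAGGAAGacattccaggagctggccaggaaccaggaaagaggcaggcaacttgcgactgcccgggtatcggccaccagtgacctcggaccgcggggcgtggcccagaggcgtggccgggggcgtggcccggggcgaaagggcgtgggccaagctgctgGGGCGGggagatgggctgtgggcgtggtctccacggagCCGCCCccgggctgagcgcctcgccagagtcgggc
The GC box was found 5 times in the Unc5a window, 3 times in that of Unc5b, 4 times in that of Efna5 and 2 times in that of Plxnd1, and not in that of Unc5c. Of all 32851 windows, 35.7% held it, and of the 69 windows of 56 measured axon guidance genes, 69.6%. AGGAAG was found 2 times each in the Efna5 and Plxnd1 windows, and was held by 35.4% of all windows and 39.1% of the axon guidance windows. An E-box that Hand2 binds, CATCTG, a form of the GATA site, AGATAA, and a homeodomain site, TAATTA, were searched in the same way. These exact letters were in none of the 5 windows. They were held by 17.2%, 11.2% and 5.29% of all windows and by 5.8%, 4.35% and 2.9% of the axon guidance windows. Other forms of these sites, such as TGATAA in the Unc5b window, were not searched. No 2 of these motifs overlapped in the windows shown, although neighbouring GC boxes in the Unc5a window share a base. A match is a description of the letters and not of a factor at work.

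Of the 4 A-class ephrins measured 3 were higher in N18 than in BV2, and of the 3 B-class ephrins 1 was lower and none higher. These shares are 75.0% higher and 33.3% lower, against 19.0% and 21.9% of all genes and targets. Efna5, a repellent that sorts axons into maps, had intensities of 12.11, 12.32, 12.30 and 12.21 in N18 and 9.90, 10.05, 9.94 and 9.90 in BV2, without overlap. It was at least 3.2-fold higher in N18 (2.29 ± 0.10, adjusted p = 2.15e-11) and above the threshold in N18 alone. Efna1, an ephrin also known from tumors and vessels, had 11.04, 11.51, 11.36 and 11.21 in N18 and 9.99, 10.09, 10.07 and 10.00 in BV2 and was at least 1.6-fold higher (1.24 ± 0.12, adjusted p = 2.37e-07). Its probes gave differences of 0.02 to 1.97, only 1 of the 3 was above the threshold in N18, and with the median of probes the difference was 0.30 (adjusted p = 0.0722). Efna2 had 11.26, 11.16, 11.12 and 11.34 in N18 and 10.70, 10.75, 10.68 and 10.66 in BV2, which is 1.43-fold (0.52 ± 0.14, adjusted p = 0.00611). Only 1 of its 3 probes was higher in N18, so that this call too depended on 1 probe.

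The B-class ephrin Efnb1, which can signal back into the cell that carries it, went the other way. Its intensities were 10.24, 10.11, 10.19 and 10.47 in N18 and 10.82, 10.77, 11.16 and 10.90 in BV2, without overlap. The difference was -0.66 ± 0.12 (adjusted p = 0.00028), BV2 was at least 1.1-fold higher, and all 3 probes agreed in direction. Efnb2 and Efnb3 were below the threshold in both lines and differed by -0.11 and -0.01.

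Of the 14 Eph receptors, 11 were not called between N18 and BV2. Higher in N18 were 2 (14.3%, against 19.0% of all genes and targets), and 1 was lower (7.14%, against 21.9%). Ephb4, a receptor best known from veins, had intensities of 11.40, 11.14, 11.49 and 11.49 in N18 and 10.47, 10.41, 10.57 and 10.41 in BV2, with every N18 plate above every BV2 plate. N18 was at least 1.8-fold higher (0.91 ± 0.16, adjusted p = 0.000218). Epha8, a receptor of A-class ephrins known from the midbrain, had 10.65, 10.62, 10.66 and 10.61 in N18 and 9.77, 9.90, 9.84 and 9.59 in BV2, where it was below the threshold. The difference was 0.86 ± 0.09 (adjusted p = 1.39e-06), and no fold is given because the smallest bound from the BV2 threshold was near 1. Epha2, an epithelial receptor of A-class ephrins, was lower in N18, with 10.55, 10.55, 10.82 and 10.86 against 11.42, 11.38, 11.27 and 11.30 in BV2 (-0.65 ± 0.13, adjusted p = 0.000525, 1.57-fold). This call was lost on unnormalized values (-0.41, adjusted p = 0.114) and on levels (-0.38, adjusted p = 0.0996).

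Of the 9 plexins and neuropilins, 2 were higher in N18 than in BV2 (22.2%, against 19.0% of all genes and targets). The 1 lower gene (11.1%, against 21.9%) was Plxnd1. Plxna4, a receptor for class 3 and class 6 semaphorins, had intensities of 11.24, 11.36, 11.19 and 10.99 in N18 and 10.17, 10.06, 10.21 and 9.99 in BV2, and was at least 1.5-fold higher in N18 (1.09 ± 0.15, adjusted p = 1.4e-05). Plxna3, which serves class 3 semaphorins with Nrp2, had 11.53, 11.43, 11.58 and 11.46 in N18 and 10.41, 10.54, 10.50 and 10.40 in BV2, and was at least 1.9-fold higher (1.04 ± 0.19, adjusted p = 0.000279). In both genes the plates of the lines did not overlap, and all 3 probes were higher in N18. Plxnd1, the receptor through which Sema3e acts on vessels, was strongest in BV2, with 13.14, 13.01, 12.82 and 13.02 on the BV2 plates and 11.40, 11.34, 11.55 and 11.51 on the N18 plates. It was 2.91-fold lower in N18 (-1.54 ± 0.15, adjusted p = 3.51e-07), and was above the threshold in both lines, while Sema3e was below it in every line.

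The other plexins and both neuropilins were not called between N18 and BV2. Plxna1, a partner of neuropilins and of class 6 semaphorins, had a level of 4.14 ± 0.44 (SD, n = 4) in N18 and 3.76 ± 0.37 in BV2. Plxnc1, the receptor of Sema7a, had 2.45 ± 0.14 in N18 and 2.23 ± 0.47 in BV2. Nrp1 differed by 0.22 ± 0.18 in intensity (adjusted p = 0.358) and Nrp2 by 0.13 ± 0.15 (adjusted p = 0.519). These values do not show that the lines are alike for them, and relative to the seminal proteins both neuropilins were called higher in N18, by 0.90 (adjusted p = 0.0125) and 0.67 (adjusted p = 0.00303).

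Among the membrane semaphorins, 3 of 12 were higher in N18 (25.0%, against 19.0% of all genes and targets) and 1 lower (8.33%, against 21.9%). Sema6d, which signals through class A plexins, had intensities of 12.69, 12.73, 12.70 and 12.71 in N18 and 10.50, 10.64, 10.73 and 10.57 in BV2, without overlap. It was 4.27-fold higher (2.10 ± 0.11, adjusted p = 1.43e-10), in all 12 of its probes. The Sema6d level in BV2 was 0.65 ± 0.08 (SD, n = 4), close to the threshold. In BV2, 5 of its 12 probes were above the threshold, so this fold is uncertain. On levels, the difference was 2.88 for Sema6d, 3.39 for Unc5b, 1.88 for Slit3 and 1.14 for Efna2. Sema4d, an immune and neural semaphorin that binds Plxnb1, had 13.50, 13.61, 13.76 and 13.39 in N18 and 12.35, 12.62, 12.09 and 12.22 in BV2. It was above the threshold in both lines and 2.37-fold higher in N18 (1.24 ± 0.16, adjusted p = 8.98e-06). Sema4f had 11.45, 11.52, 11.50 and 11.58 in N18 and 10.37, 10.42, 10.38 and 10.50 in BV2, and was at least 1.9-fold higher in N18 (1.09 ± 0.10, adjusted p = 2e-07). Of the 7 secreted class 3 semaphorins, Sema3b, which binds neuropilins, was the one called (14.3%, against 19.0% higher among all genes and targets). It had 10.67, 10.73, 10.83 and 10.79 in N18 and 10.21, 10.35, 10.50 and 10.16 in BV2 and was at least 1.1-fold higher in N18 (0.45 ± 0.10, adjusted p = 0.00158), which was lost with the median of probes (0.32, adjusted p = 0.0858).

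The ligands Slit2 and Slit3 were higher in N18 than in BV2, and of the Robo receptors Robo4 was lower and the others were not called. Of the 6 Slits and Robos, 33.3% were thus higher and 16.7% lower, against 19.0% and 21.9% of all genes and targets. Slit3 had intensities of 12.15, 12.16, 12.25 and 12.06 in N18 and 11.01, 10.91, 11.35 and 10.95 in BV2, which is 2.15-fold (1.10 ± 0.13, adjusted p = 3.13e-06). Slit2, a repellent of axons at the midline, had 10.35, 10.57, 10.51 and 10.52 in N18 and 9.64, 9.68, 9.69 and 9.48 in BV2, without overlap (0.86 ± 0.14, adjusted p = 0.000134). Its level in N18 was 0.79 ± 0.14 (SD, n = 4), close to the threshold, and without plate 2 of N18 it was 0.73, below it. Robo4 had 11.32, 10.93, 11.14 and 11.30 in N18 and 11.79, 11.84, 12.11 and 11.72 in BV2, and was 1.62-fold lower in N18 (-0.69 ± 0.15, adjusted p = 0.00119). Relative to the seminal proteins the difference of Robo4 was -0.23 (adjusted p = 0.374), and without normalization -0.26 (adjusted p = 0.386). Robo1 and Robo2 were below the threshold in both lines and differed by 0.03 and -0.04.

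**Figure D3:**
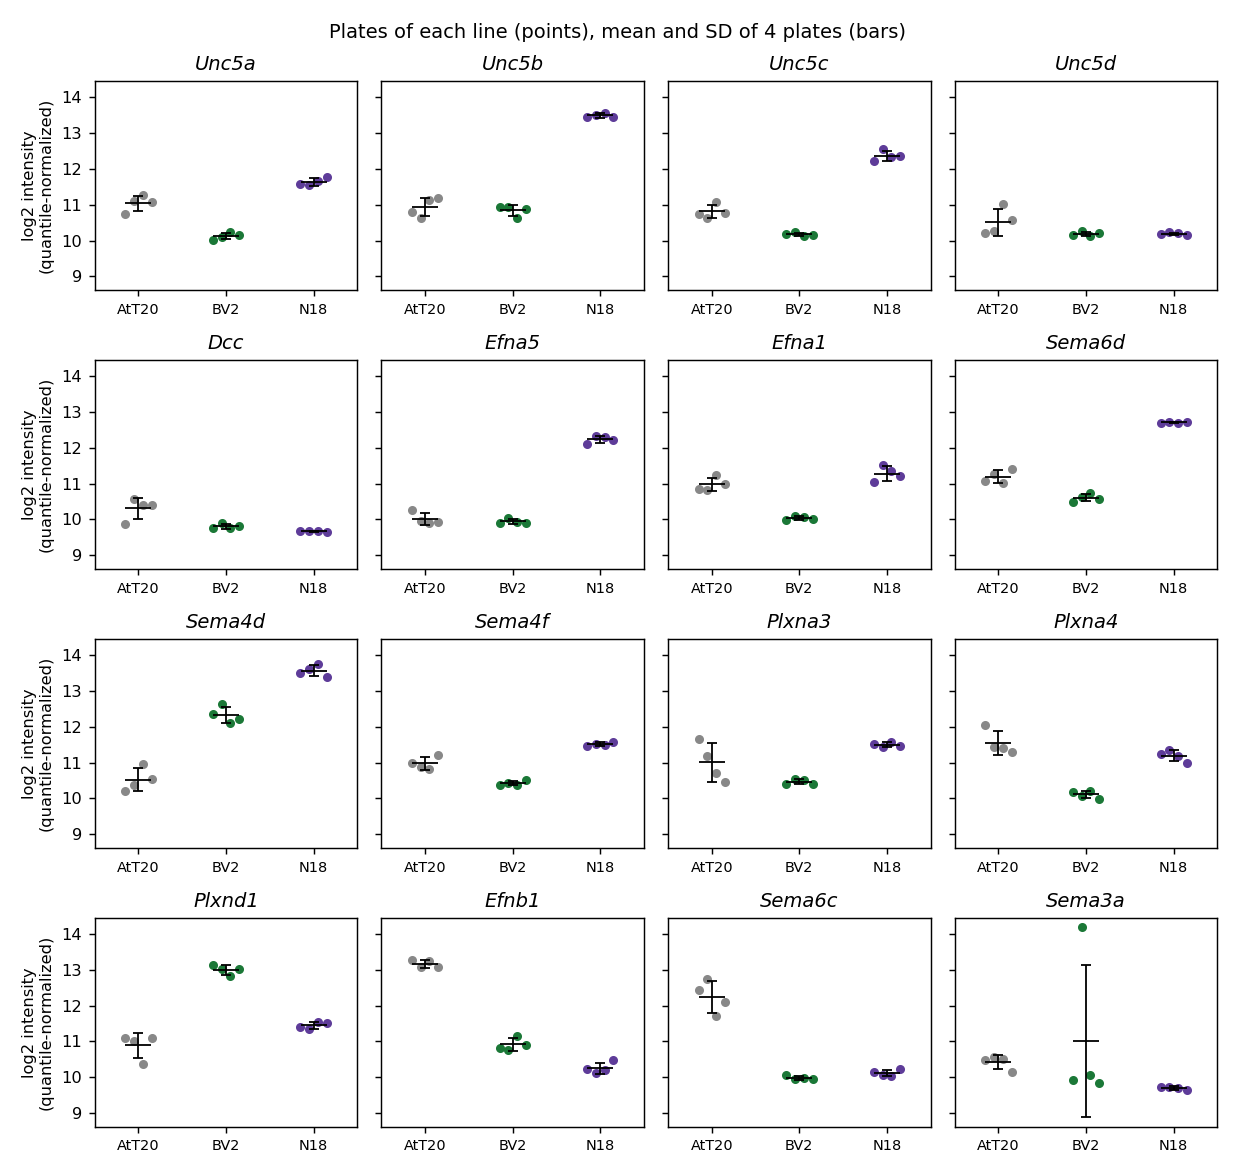
Log2 intensity after quantile normalization of 16 axon guidance genes on each of the 12 plates (points), with the mean and SD of the 4 plates of a line (bars). Unc5a, Unc5b, Unc5c, Efna5 and Sema6d have all N18 plates above all other plates, Plxnd1 has all BV2 plates on top, Efnb1 and Sema6c have all plates labelled AtT20 on top, and the mean of Sema3a in BV2 follows plate 2 at 14.19.

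Cytoplasmic proteins that carry guidance signals to the cytoskeleton were examined beside the ligands and receptors. Of 36 measured effectors, 22 were higher in N18 than in BV2 (61.1%) and 7 lower (19.4%), with a median difference of 0.59. Of all genes and targets, 19.0% were higher and 21.9% lower. On levels and on unnormalized values alike, 24 effectors were higher (66.7%) and 2 lower (5.56%), with medians of 1.26 and 1.23. The shares of all genes and targets were 38.8% and 13.1% on levels, and 30.7% and 7.58% on unnormalized values. Of the lower effector calls, those of Arhgef12, Rhoa and Cdc42 (-0.29, -0.40 and -0.48 after quantile normalization) had differences above 0 on levels, at 0.37, 0.22 and 0.22. The collapsin response mediators Dpysl3 and Crmp1, which act below semaphorin receptors in neurons, were higher by 4.82 ± 0.11 (adjusted p = 1.58e-14) and 4.62 ± 0.12 (adjusted p = 3.48e-14). Dpysl3 was at least 20-fold higher in N18, and Crmp1 24.5-fold. The Crmp1 level in BV2 was 0.67 ± 0.10 (SD, n = 4), close to the threshold, so its fold is uncertain. Enah, an actin regulator in growth cones, followed with 3.97 ± 0.11 (15.7-fold, adjusted p = 7.64e-14). In the other direction stood Cfl1, which severs actin filaments (-1.36 ± 0.12, adjusted p = 1.2e-07), Dock1, which activates Rac (-0.96 ± 0.11, adjusted p = 1.68e-06), and Vav3, an exchange factor also used by immune receptors (-0.67 ± 0.12, adjusted p = 0.000236). Cfl1 and Dock1 were called lower on all 3 scales, and the call of Vav3 was lost relative to the seminal proteins (-0.33, adjusted p = 0.128). On that scale Enah differed by 4.58.

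Of 24 other guidance genes, 9 were higher in N18 (37.5%, against 19.0% of all genes and targets) and 4 lower (16.7%, against 21.9%). Their median difference was 0.14. The adhesion molecules Nrcam and L1cam, which partner with neuropilins on axons, were higher by 2.88 ± 0.12 (7.38-fold, adjusted p = 1.39e-11) and 2.76 ± 0.12 (6.76-fold, adjusted p = 9.42e-12), and relative to the seminal proteins by 3.63 and 3.39. The Nrcam level in BV2 was 0.68 ± 0.22 (SD, n = 4), close to the threshold, so its fold is uncertain. Neo1, a netrin and RGM receptor related to Dcc, was 4.15-fold higher in N18 (2.05 ± 0.12, adjusted p = 9.21e-10). It was above the threshold in all lines. Cd72, a receptor of Sema4d on immune cells, was at least 8.6-fold higher in BV2 (-3.63 ± 0.12, adjusted p = 4.65e-13). Flrt2, a ligand of Unc5 receptors, was at least 1.6-fold higher in BV2 (-1.15 ± 0.13, adjusted p = 2.96e-06), and the netrin-G Ntng1 was lower in N18 by -0.61 ± 0.12 (adjusted p = 0.00047). The neural receptor of Sema4d, Plxnb1, was just below the threshold in both, at levels of 0.54 ± 0.23 in BV2 and 0.73 ± 0.20 in N18 (SD, n = 4).

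**Figure D4:**
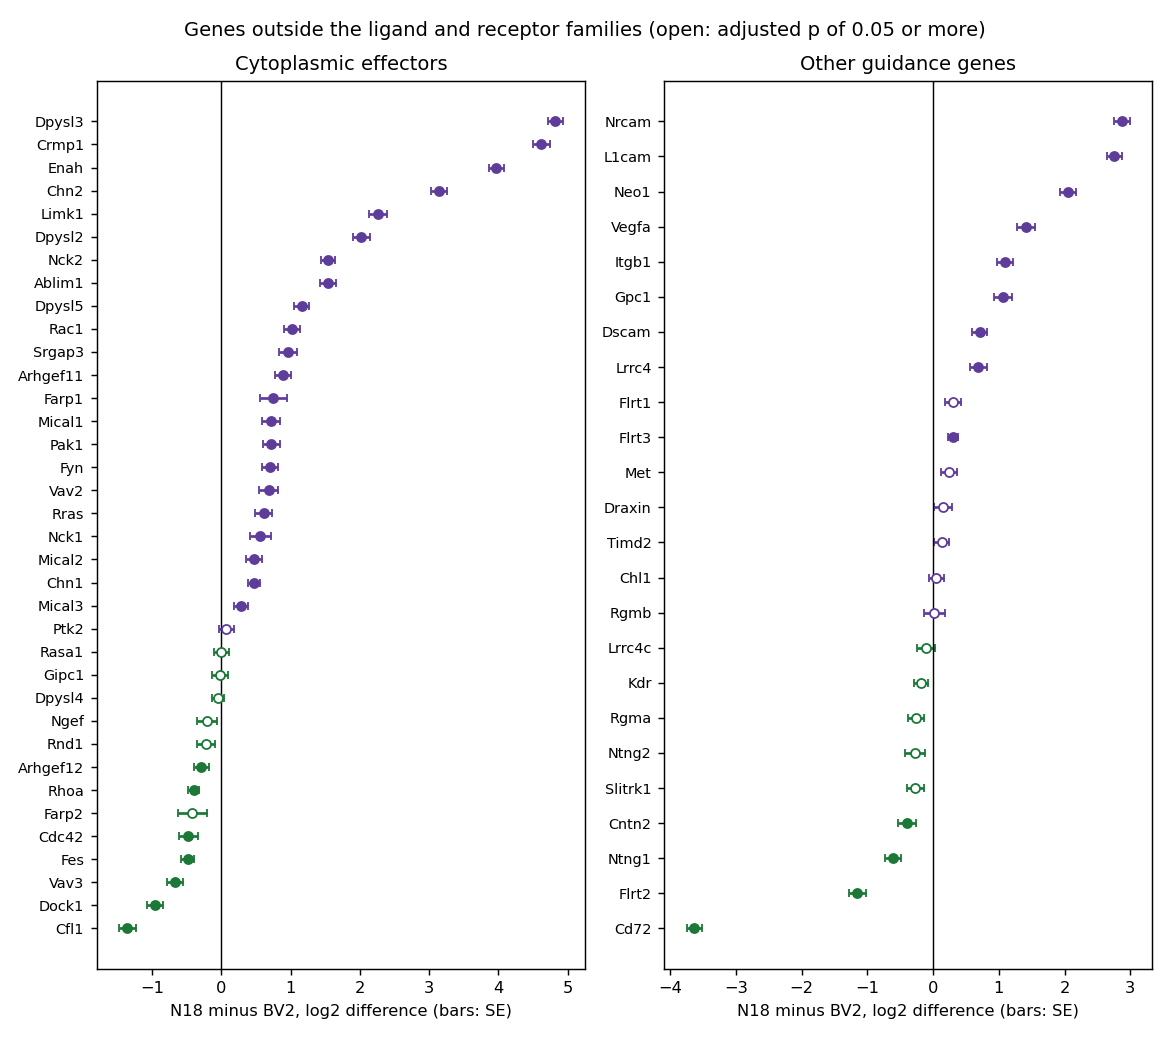
Difference in intensity between N18 and BV2, in log2 units with the SE, for 36 effectors (left) and 24 other guidance genes (right); violet points are higher in N18, green points higher in BV2, and filled points passed an adjusted p of 0.05. Dpysl3, Crmp1 and Enah lie at 4.82, 4.62 and 3.97, and Cd72 at -3.63.

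Comparisons with the plates labelled AtT20 depended on the scale. After quantile normalization, 8 of the 66 genes were higher in BV2 than in AtT20 (12.1%) and 47 lower (71.2%), where 26.6% and 47.0% of all genes and targets were. Relative to the seminal proteins, 21 were higher (31.8%, against 50.4% of all genes and targets) and 23 lower (34.8%, against 17.6%). Without normalization 4 were higher and 59 lower (89.4%, against 74.7%). Of all 25128 genes and targets, 2940 were higher and 18762 lower in BV2 without normalization. N18 was higher than AtT20 in 17 genes (25.8%) and lower in 39 (59.1%), against 27.8% and 48.6% of all genes and targets. Relative to the seminal proteins 36 were higher (54.5%, against 60.7%) and 13 lower (19.7%, against 16.3%). Without normalization 14 were higher (21.2%, against 19.9%) and 43 lower (65.2%, against 63.1%). The median difference of all genes and targets between BV2 and AtT20 was -0.23 on the quantile scale, 0.28 on levels and -1.08 on unnormalized values, and between N18 and AtT20 it was -0.25, 0.54 and -0.85. Of the called genes and targets 36.2% were higher in BV2 on the quantile scale, 74.2% on levels and 13.5% on unnormalized values, and for N18 the shares were 36.4%, 78.8% and 24.0%. From the 8 arrays of each pair alone, 8 genes were higher and 45 lower in BV2, and 13 higher and 38 lower in N18. Of all genes and targets, these fits called 17206 for BV2, 36.3% of them higher, and 18404 for N18, 36.5% of them higher. Adjusted p for AtT20 are too small for small differences, since these plates varied more than the others. Both comparisons use the same AtT20 plates. In all 3 scales, 4 genes were called higher in BV2 and 23 lower, of which 13 were above the threshold in either line. For N18 the counts were 14 higher and 13 lower, of which 8 were above it. The share of all genes and targets called on all 3 scales was not computed. The genes named next were chosen among those that held their direction on all 3 scales, except where stated.

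Plxnd1, Plxna1 and Sema4d were higher in BV2 than on the plates labelled AtT20. The Plxnd1 intensities were 11.09, 11.02, 10.37 and 11.10 on the plates labelled AtT20, below all of the BV2 values given above. BV2 was at least 2.7-fold higher (2.10 ± 0.15, adjusted p = 2.83e-09, and 9.69e-08 from the 8 arrays of the pair alone). Plxna1 had 13.79, 13.63, 13.63 and 13.44 in BV2 and 12.35, 11.78, 11.47 and 11.48 in AtT20, which is 3.61-fold (1.85 ± 0.20, adjusted p = 3.14e-07, and 9.23e-07 from 8 arrays). On levels, these differences were 2.96 for Plxna1 and 2.92 for Plxnd1. Sema4d had 10.21, 10.36, 10.96 and 10.55 in AtT20, where it was below the threshold. BV2 was at least 1.7-fold higher (1.80 ± 0.16, adjusted p = 3.91e-08, and 8.85e-07 from 8 arrays) and N18 at least 4.9-fold higher (3.05 ± 0.16, adjusted p = 6.33e-11, and 6.32e-09 from 8 arrays).

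Unc5b and Efna5 stood out in N18 against AtT20 as well. Unc5b had 10.81, 10.64, 11.14 and 11.18 in AtT20, below every N18 plate, and N18 was at least 4.6-fold higher (2.55 ± 0.13, adjusted p = 5.23e-11, and 7.63e-09 from 8 arrays). Efna5 had 10.27, 9.95, 9.91 and 9.94 in AtT20, and N18 was at least 1.9-fold higher (2.22 ± 0.10, adjusted p = 1.41e-11, and 8.55e-09 from 8 arrays). Efna5 was below the threshold in AtT20 and BV2, with levels of -0.15 ± 0.07 and -0.09 ± 0.08 (SD, n = 4), and Unc5b was below it in AtT20 (0.21 ± 0.12) and above it in BV2 (0.92 ± 0.25).

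Efnb1, Sema6c and Plxna2 were higher on the plates labelled AtT20 than in both other lines, and Ephb4 was higher there than in BV2. Efnb1 had 13.28, 13.08, 13.23 and 13.07 there, above every plate of the other lines. It was 4.77-fold higher than in BV2 (-2.25 ± 0.12, adjusted p = 7.07e-11, and 9.25e-09 from 8 arrays) and at least 2.4-fold higher than in N18 (-2.91 ± 0.12, adjusted p = 3.46e-12, and 1.12e-09 from 8 arrays). The Efnb1 differences were smaller relative to the seminal proteins, at -1.04 from BV2 and -1.57 from N18. Sema6c, a membrane semaphorin that binds class A plexins, had 12.42, 12.74, 11.71 and 12.09 in AtT20, 10.05, 9.95, 9.99 and 9.94 in BV2 and 10.14, 10.06, 10.04 and 10.24 in N18. It was at least 1.7-fold higher than in BV2 (-2.26 ± 0.16, adjusted p = 2.73e-09) and at least 1.5-fold higher than in N18 (-2.12 ± 0.16, adjusted p = 5.08e-09). From 8 arrays these adjusted p were 5.75e-07 and 7.44e-07, and the 3 probes of Sema6c gave differences from BV2 of -3.79 to -0.36, with only 1 probe above the threshold in AtT20.

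Ephb4 had 13.00, 12.59, 12.46 and 12.05 on the plates labelled AtT20. It was at least 1.9-fold lower in BV2 (-2.06 ± 0.16, adjusted p = 7.64e-09, and 6.04e-07 from 8 arrays), whereas against N18 its difference was -1.15 after quantile normalization and 0.52 relative to the seminal proteins, so no direction is given. Plxna2, a plexin for class 3 and class 6 semaphorins, had 12.88, 12.65, 12.26 and 12.14 in AtT20 and 10.56, 10.33, 10.51 and 10.53 in N18. It was 4.00-fold higher in AtT20 (-2.00 ± 0.15, adjusted p = 4.3e-09, and 3.27e-07 from 8 arrays), while relative to the seminal proteins the difference was -0.69 (adjusted p = 0.0139). Against BV2 the Plxna2 differences were -1.64 (adjusted p = 5.6e-08) and -0.56 (adjusted p = 0.0472) on the same scales. Beside these results stand the marker values of the same plates, where 6 of 10 mesenchymal genes and 3 of 7 Schwann and glial genes were above the threshold, against 3 and 2 in BV2 and 5 and 4 in N18. The mean level of the 9 corticotroph genes was 0.01 to 0.12 per plate in AtT20, and their part in these results was not tested.

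**Figure D5:**
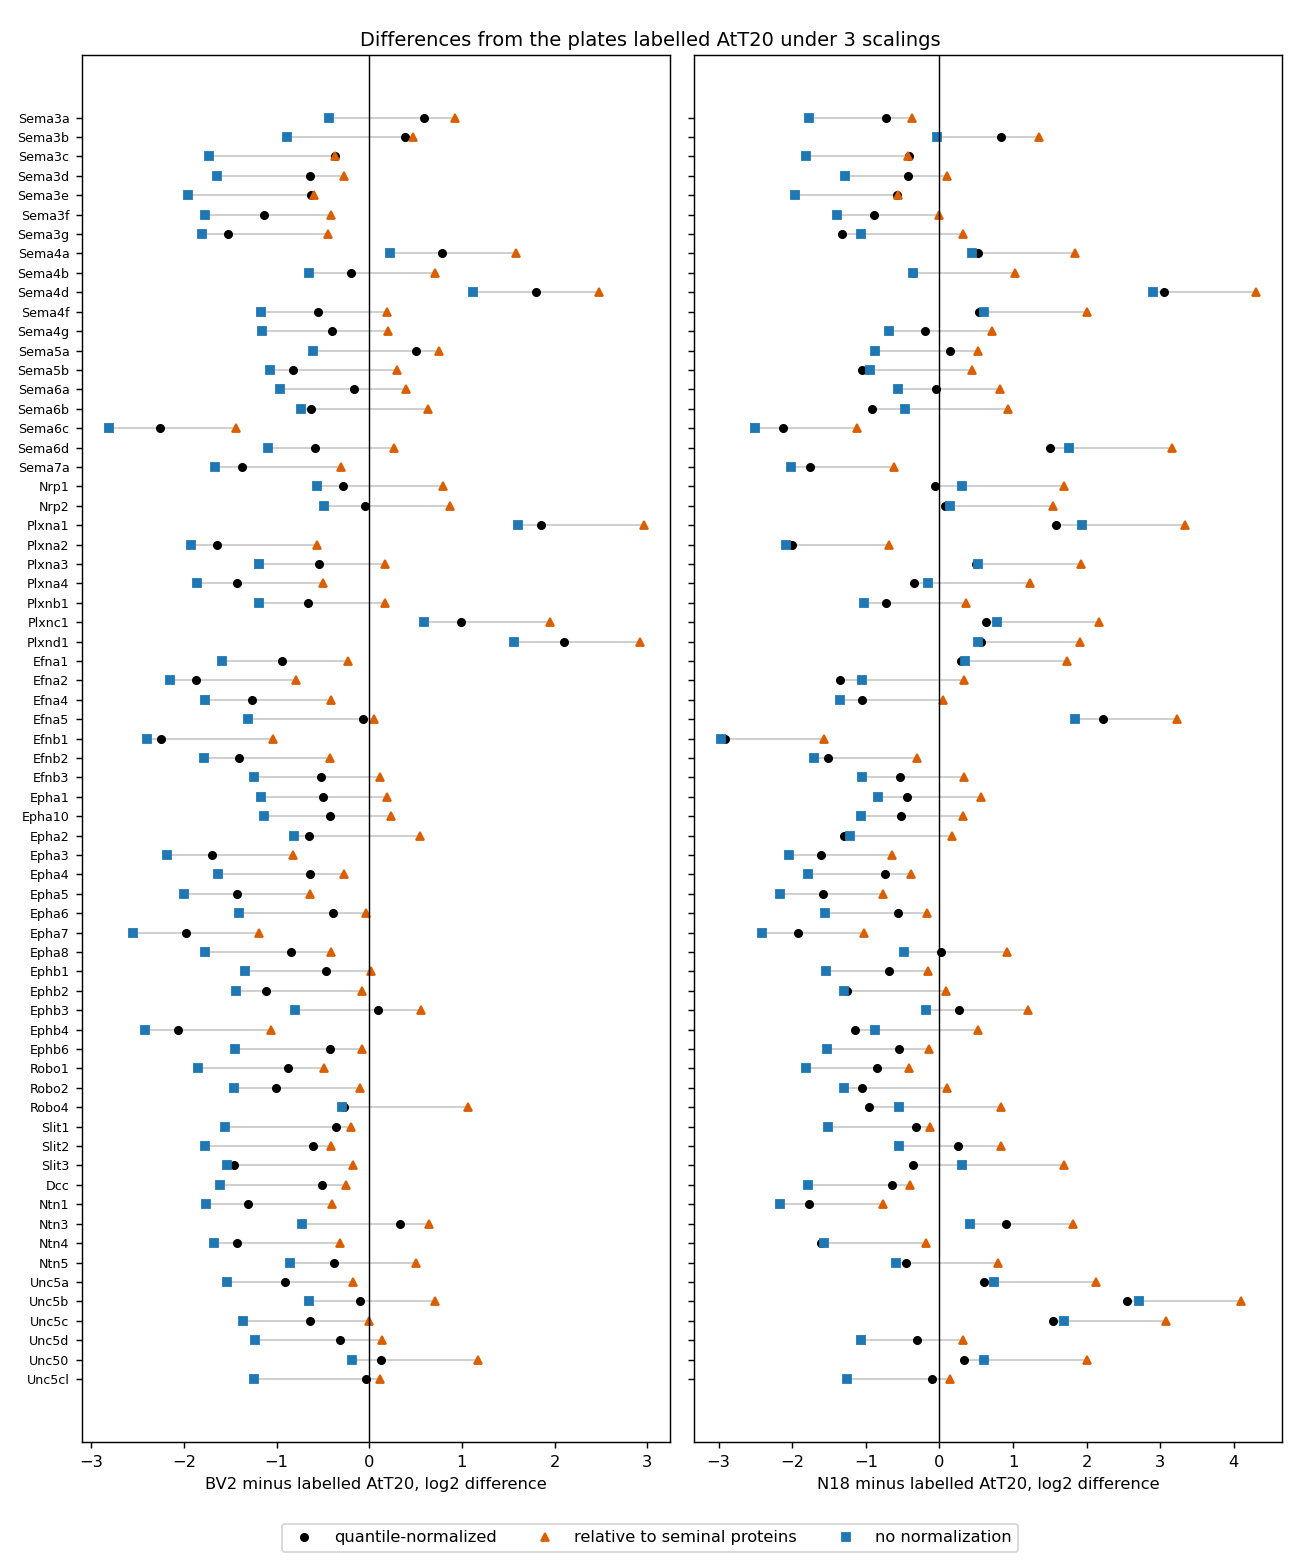
Difference of each of the 66 genes between BV2 (left) or N18 (right) and the plates labelled AtT20, in log2 units, on the quantile scale (circles), against the seminal proteins (triangles) and unnormalized (squares). The triangles lie to the right of the squares in every row, while Sema4d, Plxna1 and Plxnd1 stay right of 0 and Efnb1 and Sema6c left of 0 in both panels.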

How the data were processed

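The deposited table holds the Cy3 signal of 72000 probes (3 per target) in 12 arrays, which the authors transformed to log2. No background correction or normalization between arrays is described in the methods, and none was seen in the values. Probes were assigned to 25631 targets by transcript identifier, and 69.4% of the targets were named through the RefSeq gene table (GRCm38.p6).

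Arrays were quantile-normalized, the log2 of the mean linear signal was taken per target, and targets were averaged per gene. The test between lines was limma's (version 3.58.1, R 4.3.3), with lmFit, eBayes and a variance trend over 12 arrays in 1 fit (two-sided), with Benjamini-Hochberg adjustment over 25128 genes and targets and a threshold of 0.05. The 3 lines share 1 variance in this fit while the plates labelled AtT20 varied more, so comparisons with them carry a second p from the 8 arrays of the pair. Tested on simulated data with known changes and the spread of each line, the estimates were recovered, and for N18 against BV2 the share of false calls was near the threshold. In comparisons with AtT20 the fit of 12 arrays made many more false calls than its adjusted p allows, and that of 8 arrays fewer but still too many, so calls of small differences there are uncertain.

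Tests were repeated on unnormalized values, on levels against the seminal proteins, and with median centring, a normexp background correction (offset 50), the mean of log2 probes or the median of probes, the highest target, a replicate block, a minimum difference of 1, a filter at the detection threshold, the 8 arrays of a pair, a variance weight per line, and leaving out each plate. For the threshold they were 3 SD, olfactory receptor genes as controls, at least 2 probes, all 4 plates, the SD over plate means and quantile normalization.

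Named with values on every plate are, for N18 against BV2, up to 4 called genes per role and direction that were above the threshold in either line, for AtT20 up to 3 each way that were called on all 3 scales, and 3 each way of 2 further lists. The members and lists were chosen with earlier results of these data known, and the promoter windows and Sema3a after their values were seen. Which plates shared a slide is not given in the sources used here, so slide and line cannot be told apart. Signal over background and 4 arrays per line limit the precision. Python 3.11.15, numpy 2.4.6, pandas 2.3.3 and matplotlib 3.10.9 were used for tables and figures.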

Additional observations from a re-analysis of the deposited data

Results flagged for a closer look

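Among 198 groups of 4 plates (66 genes in 3 lines), 6 held a plate whose gap to the nearest of the others, divided by the range of the group, exceeded Dixon's critical value for 4 samples. Chance gives about 1 such group in 20, or 9.9 of 198, so their number is below what chance gives. By far the widest gap was that of Sema3a, with an intensity of 14.19 on BV2 plate 2 and 9.84 to 10.06 on the other BV2 plates, which came from 1 of its 3 probes. Plxnd1 had 10.37 on plate 3 labelled AtT20 and 11.02 to 11.10 on the others. Efna5 had 10.27 on plate 1 labelled AtT20 and 9.91 to 9.95 on the others. On the N18 plates, Efnb2 had 10.23 on plate 1 (others 10.34 to 10.37), Robo2 had 10.54 on plate 4 (others 10.35), and Sema4a had 11.41 on plate 3 (others 11.29).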

How the results depend on the processing

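Of 627 values of the named genes under the alternatives, 620 kept their direction and their side of the threshold, 7 kept the direction and lost the call, and 0 changed sign. The calls lost were those of Ntn3, Efna1 and Sema3b with the median of probes, and of Epha2 and Robo4 on unnormalized values and on levels against the seminal proteins. The named genes were chosen among those called on the quantile scale, and those against AtT20 among genes called on all 3 scales. Part of the 620 was therefore fixed by this choice. Genes higher in N18 than in BV2 (17) numbered 28 relative to the seminal proteins and 11 with a difference of at least 1. Genes lower in N18 than in BV2 (6) numbered 3 without normalization, 3 relative to the seminal proteins, 17 with median centring, 1 with a difference of at least 1, 17 from the 8 arrays of the pair and 18 with a variance weight per line. The 8 arrays called all of the 17 higher and 6 lower genes again. With a difference of at least 1, 11 effectors and 8 other guidance genes were called in place of 29 and 13, and the 8 arrays called 20 of the latter. Genes higher in BV2 than in AtT20 (8) numbered 4 without normalization, 21 relative to the seminal proteins and 3 with a difference of at least 1, and genes lower in BV2 (47) numbered 23 relative to the seminal proteins, 24 among genes above the threshold and 19 with a difference of at least 1. Genes higher in N18 than in AtT20 (17) numbered 36 and 6, and genes lower in N18 (39) numbered 13 and 18, relative to the seminal proteins and with a difference of at least 1, with 25 of the lower genes called among genes above the threshold. Fewer genes enter the test under the last of these, and a further condition is set by the difference of at least 1. For the other settings the cause was not tested. With olfactory receptor genes as controls, 19, 11 and 25 genes were above the threshold in AtT20, BV2 and N18 in place of 29, 26 and 38, and 17 in AtT20 with at least 2 probes above it.

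With each plate left out in turn, 17 genes were higher and 6 lower in N18 than in BV2 in every case. The genes above the threshold numbered 27 to 29 in AtT20, 25 to 29 in BV2 and 37 to 40 in N18. Deviations of same-numbered plates correlated between -0.105 and 0.319, the highest value being that of plate 2 of N18 and BV2. Differently numbered plates were not compared, so these values do not decide whether the replicate numbers pair the plates. With the replicate number as a block, 17 genes were higher and 6 lower in N18 than in BV2, 8 and 47 in BV2 against AtT20, and 15 and 39 in N18 against AtT20.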
